A study of Mus musculus with 20 samples.

Results

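The genes described here are 10 mouse genes with known roles in how the kidney handles magnesium: Trpm6, Trpm7, Egf, Cldn10, Cldn14, Cldn16, Cldn19, Cnnm2, Slc41a3 and Fxyd2. They were chosen by gene symbol because cisplatin, a platinum chemotherapy drug, is known to cause magnesium loss. Earlier results of these data were known when they were chosen. All 10 were found among the 25638 genes of the deposited count table, and all 10 passed the low-count filter that left 14858 genes for testing. Polyadenylated RNA was sequenced from whole kidneys of 20 male C57BL/6J mice, an inbred laboratory strain, aged 6 to 8 weeks and of 18 to 22 g body mass. The 4 groups had 5 animals each. Control mice took phosphate-buffered saline by mouth and had an injection of saline into the abdomen. Cisplatin mice took the same oral vehicle and had 1 injection of cisplatin at 10 mg/kg. The remaining mice had that injection too and took 7-hydroxycoumarin-β-D-glucuronide (7-HCG), a coumarin joined to a sugar acid, by mouth at 15 mg/kg or at 30 mg/kg. Oral dosing was daily for 5 days, cisplatin or saline was given on day 3, and kidneys were taken 72 h after it. No group took 7-HCG without cisplatin, so a comparison of either dose with control holds both agents.

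Most filtered magnesium is taken back in the thick ascending limb of the loop of Henle, where it passes between cells through pores made by claudin-16 and claudin-19, and claudin-14 closes those pores. The final adjustment takes place in the distal convoluted tubule, where magnesium enters cells through channels made of TRPM6 and TRPM7, and epidermal growth factor (EGF) raises the activity of TRPM6. CNNM2, SLC41A3 and the FXYD2 subunit of the sodium pump act in the same cells on the blood side or inside the cell, and inherited loss of several of these proteins in people causes low blood magnesium.

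Libraries held 10714532 to 49602115 counts, and 3 counts in a library corresponded to 0.0497 to 0.375 CPM. CPM is the usual count scaled to library size, here with library sizes adjusted by the TMM method. Mitochondrially encoded mRNAs took 24.6% to 45.5% of the counts in control kidneys and 3.04% to 8.01% in the 10 kidneys given 7-HCG. In cisplatin they took 16.6% to 27.3% in replicates 2, 3 and 6 but 77.7% in replicate 9 and 70.6% in replicate 10. Each called member or ratio that uses cisplatin kidneys is therefore also given without this pair. The mitochondrial share of every kidney given 7-HCG lay below that of every other kidney, with or without the pair. A comparison of 7-HCG with another group thus also holds that difference. Calls of marker genes and of further magnesium genes are given with all cisplatin kidneys only. Control replicates 2 and 5 held high levels of fat cell genes, and results were also recomputed without that pair. Markers of the thick limb, the distal convoluted tubule and the proximal tubule were present in every group, with no marker of these lists at 0 throughout. The kidneys are bulk tissue, so fewer cells of a type and less RNA per cell cannot be told apart in any value given here.

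Corrected for the length of their exons, the 10 genes spanned a wide range in control kidneys. As mean RPKM, the CPM divided by the exon length in kilobases, Fxyd2 stood highest at 481 ± 106 (SD, n = 5). Cldn10 at 27.7 ± 6.23 and Egf at 26.0 ± 9.57 came next and did not differ beyond their spread. The length joins the exons of all annotated transcripts, 2591 bp for Cldn10 and 11275 bp for Egf, and the order of genes depends on that choice. Cldn19 stood at 11.9 ± 1.78, Trpm7 at 7.22 ± 1.49 and Cldn16 at 6.46 ± 1.31 RPKM, the last pair with overlapping spreads. Cnnm2 at 3.96 ± 0.940, Trpm6 at 1.09 ± 0.322 and Slc41a3 at 0.766 ± 0.153 RPKM were low. Cldn14 was near the detection limit at 0.101 ± 0.0933 RPKM.

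Cisplatin alone raised 3 of the 10 genes, Cldn14, Cldn16 and Trpm6, and lowered none, at an adjusted p below 0.05 in the edgeR quasi-likelihood test with Benjamini-Hochberg adjustment over all tested genes. Of all tested genes 13.4% were called in this comparison, 8.41% higher and 5.01% lower. Set against cisplatin, 15 mg/kg 7-HCG showed 6 members called, with Egf, Cldn10, Cnnm2 and Fxyd2 higher and Trpm6 and Trpm7 lower, beside 37.5% of all genes called (18.9% higher and 18.6% lower). The 30 mg/kg dose showed 3, with Cldn10 higher and Trpm6 and Trpm7 lower, beside 27.9% of all genes (14.7% and 13.2%). Against control, 5 members were higher and 1 lower at 15 mg/kg, where 45.2% of all genes were called (23% and 22.2%). At the higher dose 3 were higher and 1 lower, beside 34.2% of all genes (18.6% and 15.6%). Cldn14, Cldn16 and Cnnm2 were higher than control at both doses and Trpm7 was lower at both.

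These comparisons share libraries, each dose being set against the same 5 cisplatin and the same 5 control kidneys, and are given side by side. The median log2 fold change of the 10 members was 0.05 for cisplatin against control, where that of all genes was -0.01. It was 0.63 and 0.32 for 15 and 30 mg/kg against cisplatin, with all-gene medians of -0.05 and 0.00. Between the doses no member was called, and edgeR called 0% of all genes, with 1066 genes at an unadjusted p below 0.05, 1 gene by DESeq2 and 0 by limma voom.

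**Figure D1:**
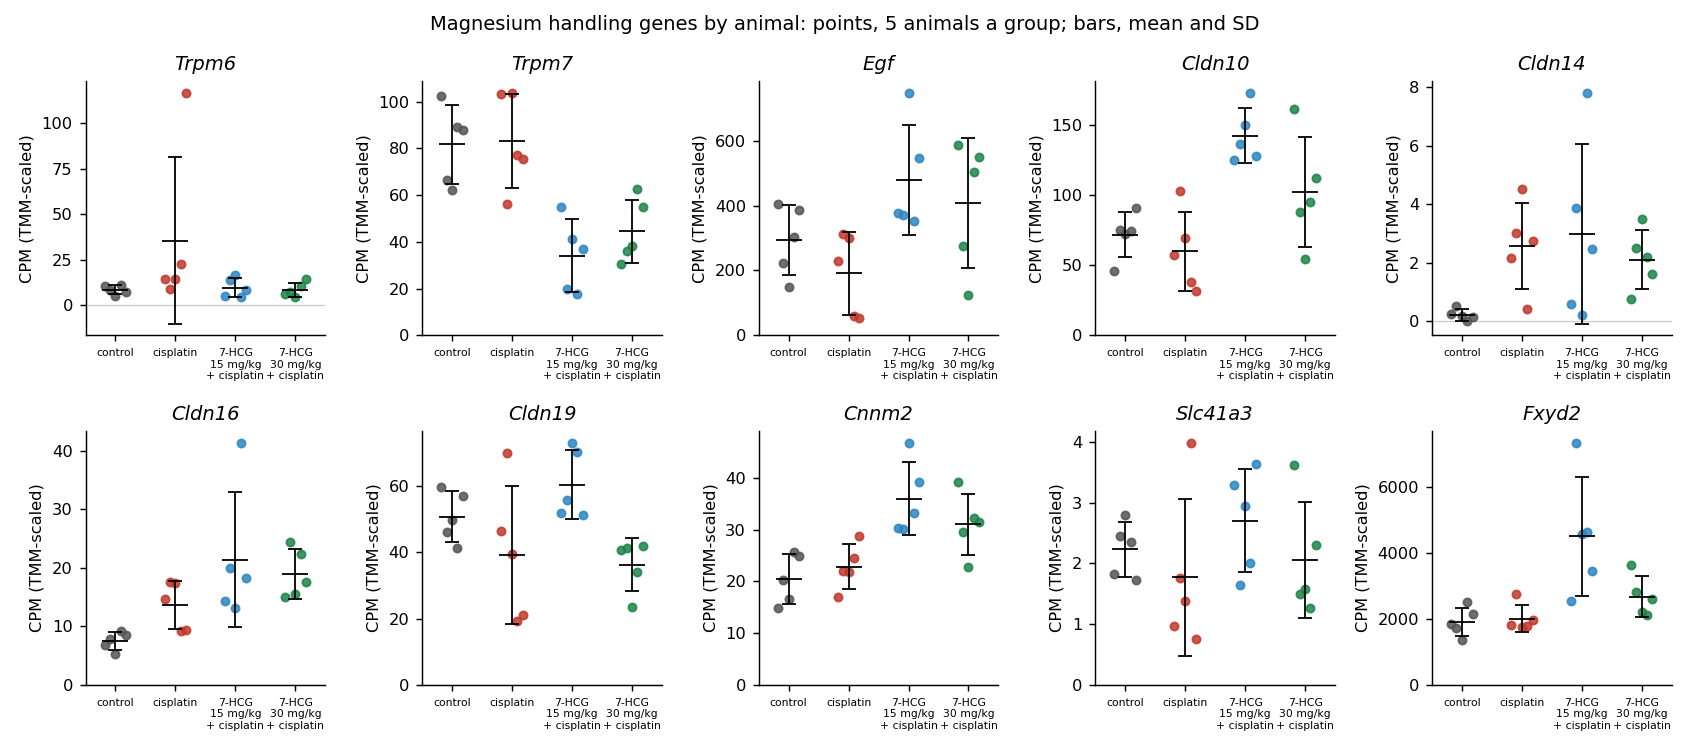
CPM of each of the 10 genes by animal (vertical axes start at 0 or, where the SD bar reaches lower, just under it). Points are the 5 animals of a group and bars the mean and SD. Cldn14 and Cldn16 lie lowest in control, Trpm7 lies lowest at 15 mg/kg, and 1 cisplatin kidney stands at 117 CPM of Trpm6.

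**Figure D2:**
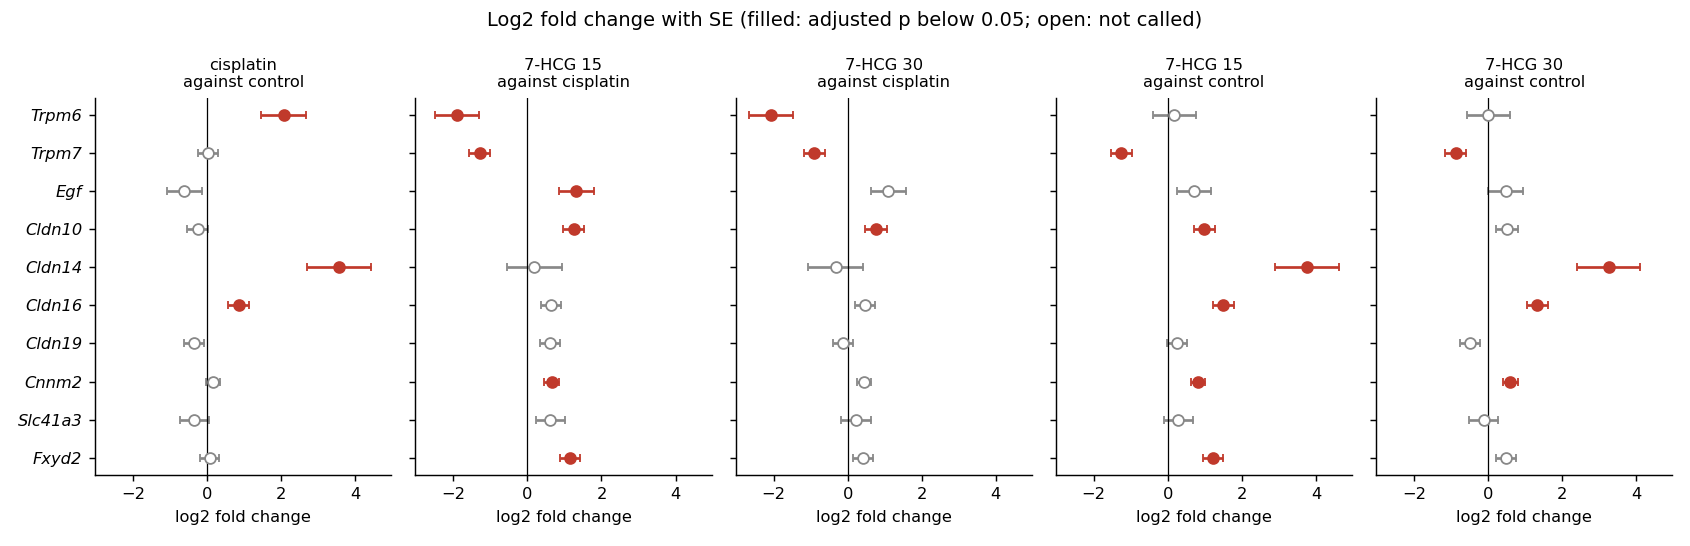
Log2 fold change with its standard error for the 10 genes in 5 comparisons. Filled points passed an adjusted p of 0.05 and open points did not. Cldn14 and Cldn16 are filled in the 3 comparisons with control, and Trpm7 in the 4 that contain 7-HCG.

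The claudin that closes the magnesium pore showed the largest change. Cldn14 (chromosome 16, 93919031 to 94008837, minus strand, GRCm38) gave 0.249, 0.532, 0.166, 0 and 0.128 CPM in control replicates 1, 2, 5, 7 and 8, from 6, 20, 6, 0 and 4 counts. The 0 in replicate 7 allows a level of up to 0.0906 CPM, the value of 3 counts there. Cisplatin replicates 2, 3, 6, 9 and 10 gave 2.17, 3.00, 4.51, 0.408 and 2.75 CPM. All but replicate 9, which held 4 counts, lay above every control kidney. The rise was 11.8-fold, a log2 fold change of 3.57 ± 0.86 (SE; edgeR adjusted p = 0.0127), from 0.215 ± 0.199 to 2.57 ± 1.48 CPM (SD, n = 5). Without cisplatin replicates 9 and 10 it was 3.83 (edgeR adjusted p = 0.0263). Without control replicates 2 and 5 it was 4.42 (edgeR adjusted p = 0.0523).

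With 7-HCG the level of Cldn14 was again above control. The 15 mg/kg replicates 1, 2, 3, 5 and 7 gave 0.593, 3.85, 0.206, 7.81 and 2.46 CPM, so replicate 3 lay within the control range and replicate 5 was the highest of all 20 kidneys. The 30 mg/kg replicates 1, 5, 6, 7 and 8 gave 0.746, 2.49, 3.48, 2.20 and 1.61 CPM, each above every control kidney. Against control the log2 fold change was 3.75 ± 0.86 at 15 mg/kg and 3.25 ± 0.85 at 30 mg/kg (edgeR adjusted p = 0.00194 and 0.00684). Both calls held in 30 of 30 alternative settings. Against cisplatin the differences were 0.19 ± 0.74 and -0.32 ± 0.74 (edgeR adjusted p = 0.863 and 0.780), standard errors too wide to show a change of that size.

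Cldn14 is printed here with Cldn16 because the pair rose in the same comparisons. Their log2 CPM correlated at r = 0.76 over the 20 libraries and at 0.59 around the group means, given as a description over libraries that share their scaling. The sequences run from 250 bases before to 50 bases after a RefSeq transcript start (GRCm38.p6), 5′ to 3′ on the gene's strand. Capitals mark GGAAAA, the core motif of NFAT factors, and TGANTCA, the AP-1 motif, on either strand. The Cldn14 entry is the outermost of 3 for this gene, chr16:94008788-94009087 on the minus strand, and the Cldn16 entry is chr16:26462885-26463184 on the plus strand.
Cldn14: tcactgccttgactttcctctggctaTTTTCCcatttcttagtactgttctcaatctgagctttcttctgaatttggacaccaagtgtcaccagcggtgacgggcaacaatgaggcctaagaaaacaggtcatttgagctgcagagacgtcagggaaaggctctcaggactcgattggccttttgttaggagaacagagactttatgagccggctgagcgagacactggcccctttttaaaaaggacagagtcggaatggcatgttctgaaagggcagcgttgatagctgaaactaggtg
Cldn16: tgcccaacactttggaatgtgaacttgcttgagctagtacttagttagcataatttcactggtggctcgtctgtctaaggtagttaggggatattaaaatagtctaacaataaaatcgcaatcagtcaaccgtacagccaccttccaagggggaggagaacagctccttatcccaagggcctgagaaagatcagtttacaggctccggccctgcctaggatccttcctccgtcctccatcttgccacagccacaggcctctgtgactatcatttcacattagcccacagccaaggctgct
The Cldn14 window held GGAAAA once, on the reverse strand, and the Cldn16 window held neither motif. Of the Cldn14 entries not printed, that starting at 93929768 held 1 match to GGAAAA and that at 93929518 held 0. Each Cldn19 entry held 2 matches, though Cldn19 was called in no comparison, and the Trpm6 entry held 1. Of 32851 promoter windows of the same length, 23.4% held GGAAAA and 7.81% TGANTCA, so a match in 1 window is a description only.

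In the mouse kidney, the calcium-sensing receptor is known to act on Cldn14 through a pair of microRNAs, miR-9 and miR-374. Their mature sequences and the matching stretch of Cldn14 are shown because they are the known regulators of the member that moved most. Capitals mark the seed, bases 2 to 8 of the microRNA, and its match in the mRNA.
mmu-miR-9-5p: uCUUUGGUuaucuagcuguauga
mmu-miR-374b-5p: aUAUAAUAcaaccugcuaagug
Cldn14 3′ UTR site: tggttttttattTATTATAtgtatt
The site lies at base 145 of the 205-base to 206-base 3′ untranslated regions of 3 Cldn14 transcripts in GENCODE vM21. No other member held a match to the miR-374b seed, and no Cldn14 transcript held a match to the miR-9 seed. Of 9523 transcripts with a 3′ untranslated region of 100 to 300 bases, 1.51% held the miR-374b match. Polyadenylated RNA libraries do not measure mature microRNAs, and Casr, the calcium-sensing receptor, was called in none of the 6 comparisons.

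Cldn16, the pore-forming claudin (chromosome 16, 26463135 to 26482765, plus strand), rose more modestly and more evenly. Control kidneys gave 6.86, 7.90, 5.34, 9.27 and 8.52 CPM, in the order of replicate numbers given for Cldn14. Cisplatin kidneys gave 14.6, 17.5, 17.4, 9.29 and 9.38 CPM. The groups did not overlap, but replicates 9 and 10 lay only just above the highest control. The log2 fold change was 0.86 ± 0.28, or 1.81-fold (edgeR adjusted p = 0.0477), a call that held in 10 of 30 alternative settings, with log2 fold changes of 0.66 to 1.40 across them. It was 1.09 without cisplatin replicates 9 and 10 (edgeR adjusted p = 0.0422). The call ended without any 1 of the 5 control kidneys or of cisplatin replicates 2, 3, 6 and 10 (edgeR adjusted p = 0.0540 to 0.115).

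Kidneys given 15 mg/kg showed 14.4, 20.0, 13.1, 41.3 and 18.2 CPM of Cldn16, and those given 30 mg/kg showed 15.0, 24.4, 15.6, 22.4 and 17.5 CPM. All 10 lay above every control kidney. Against control the log2 fold change was 1.50 ± 0.28 at 15 mg/kg and 1.32 ± 0.28 at 30 mg/kg (edgeR adjusted p = 0.000491 and 0.00198), and both calls held in 30 of 30 settings. Against cisplatin the values were 0.64 ± 0.28 and 0.47 ± 0.28 and were not called (edgeR adjusted p = 0.0774 and 0.216). The order of the group means was control, cisplatin, 30 mg/kg and 15 mg/kg, with no difference called between neighbours above control.

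Cldn19, the partner of claudin-16 in the pore (chromosome 4, 119255414 to 119262438, plus strand), was called in no comparison. Control kidneys gave 41.2 to 59.5 CPM with a mean of 50.6 ± 7.58 (SD, n = 5). Cisplatin kidneys ranged from 19.3 to 69.9, where replicates 9 and 10, at 19.3 and 21.0 CPM, were lowest. The mean was 60.3 ± 10.4 with the lower dose of 7-HCG. With the higher dose it was 36.2 ± 7.84 CPM. All 5 kidneys at 30 mg/kg lay below all 5 at 15 mg/kg, but the difference of -0.73 ± 0.27 was not called (edgeR adjusted p = 0.677). A predicted gene on the opposite strand, Gm12927, overlaps 90 bp of its exons, and without a stated strand setting their reads cannot be told apart.

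Cldn10 encodes a claudin that passes sodium between thick limb cells, with other forms elsewhere in the nephron (chromosome 14, 118787908 to 118875489, plus strand). It gave 46.1, 74.9, 72.4, 74.0 and 91.0 CPM in control and 57.1, 103, 69.1, 38.1 and 31.8 CPM in cisplatin. Kidneys given 15 mg/kg held 125, 136, 149.7, 172 and 128 CPM, above all control and all cisplatin kidneys. The log2 fold change at 15 mg/kg was 1.25 ± 0.29 against cisplatin and 0.99 ± 0.29 against control (edgeR adjusted p = 0.00268 and 0.00893). Without cisplatin replicates 9 and 10 the first was 0.93 (edgeR adjusted p = 0.0276).

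At 30 mg/kg Cldn10 gave 161, 87.6, 54.3, 95.2 and 112 CPM, and these overlapped both other groups. The difference from cisplatin of 0.77 ± 0.29 (edgeR adjusted p = 0.0499) was called in 3 of 30 alternative settings and fell to 0.42 (edgeR adjusted p = 0.339) without cisplatin replicates 9 and 10. Against control it was 0.51 ± 0.29 and was not called (edgeR adjusted p = 0.168).

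Thick limb markers moved unevenly beside these claudins. The summed CPM of 6 markers ranged from 1074 to 2646 in control. In cisplatin the sum was 2619, 2970.2 and 2463 in replicates 2, 3 and 6, and 992 and 1008 in replicates 9 and 10. With 15 mg/kg 7-HCG it ranged from 2837 to 4998, with 30 mg/kg from 2231 to 3474, and no marker was at 0. Umod and Bsnd were called higher at 15 mg/kg than in cisplatin and Umod at 30 mg/kg, which is 2 and 1 of 6 (18.9% and 14.7% of all genes were called higher). Against control 2 of 6 were higher at each dose (23% and 18.6% of all genes), and in cisplatin 1 was higher and 1 lower (8.41% and 5.01%). Slc12a1, the sodium, potassium and chloride carrier of this segment, gave means of 569.5, 574, 383 and 330.4 CPM in control, cisplatin, 15 and 30 mg/kg and was called in none. Its cisplatin values were 903, 729, 805, 271 and 161 CPM in replicates 2, 3, 6, 9 and 10. The part of these markers in the claudin results was not tested.

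Trpm6 makes the apical magnesium channel of the distal convoluted tubule (chromosome 19, 18749983 to 18892510, plus strand). It gave 10.7, 8.27, 5.09, 11.0 and 6.99 CPM in control and 14.5, 8.75, 14.3, 22.8 and 117 CPM in cisplatin. Replicate 10, with 935 counts, stood far above the other 4 cisplatin kidneys, of which replicate 3 lay within the control range. The log2 fold change was 2.07 ± 0.60 (edgeR adjusted p = 0.0292), 0.83 without replicate 10 (edgeR adjusted p = 0.227) and 0.54 without replicates 9 and 10 (edgeR adjusted p = 0.495). The call also ended without control replicate 2, 5 or 8, at 2.06, 1.93 and 2.01 (edgeR adjusted p = 0.0702, 0.0774 and 0.0620). The size of the value rests on replicate 10, a library with 70.6% mitochondrial counts and the highest summed level of 5 neutrophil markers, 50.7 CPM against at most 4.05 CPM in control. The sum of 6 distal convoluted tubule markers was 1145 CPM in replicate 10 and 1001 CPM in replicate 9. It was 552, 566 and 729 CPM in cisplatin replicates 2, 3 and 6 and 570 to 894 CPM in control. The highest sum, 1237 CPM, was in 15 mg/kg replicate 3, with 16.2 CPM of Trpm6. The part of any of these in the Trpm6 value was not tested.

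**Figure D3:**
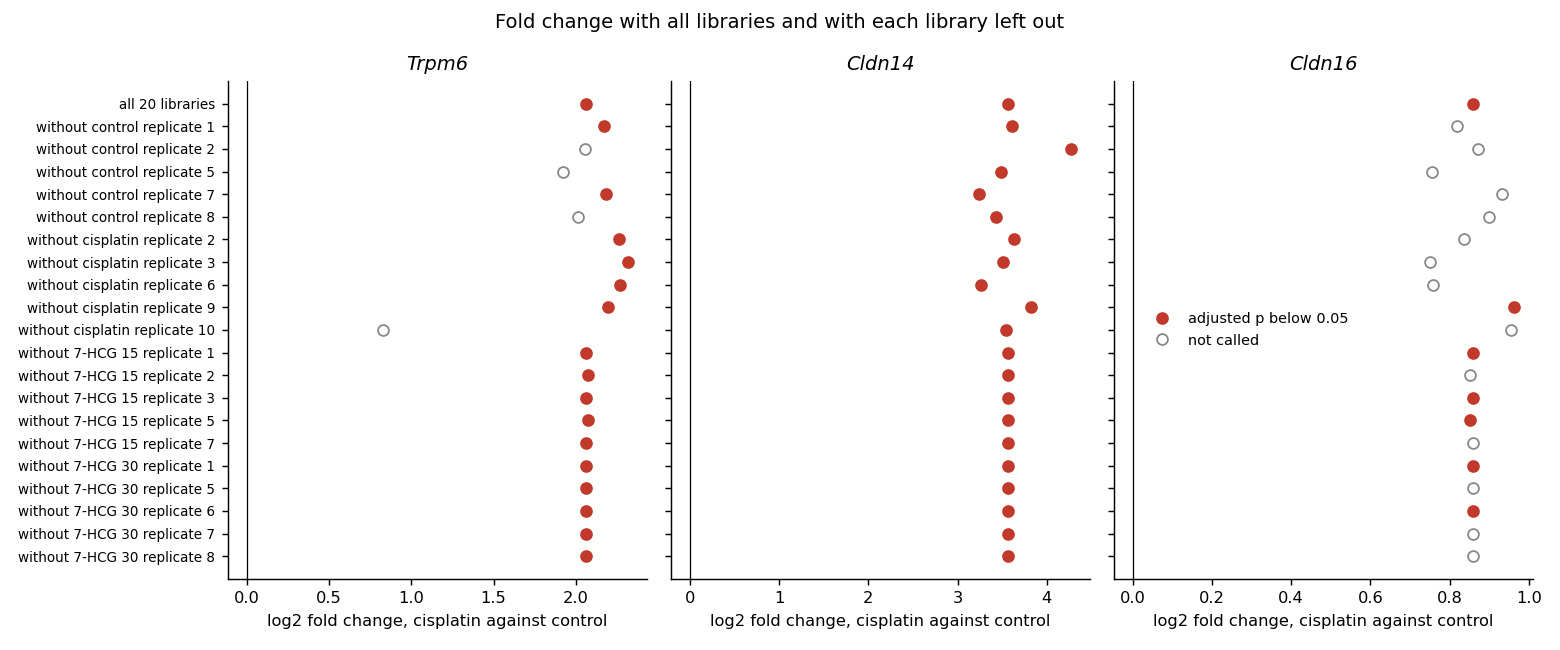
Log2 fold change of Trpm6, Cldn14 and Cldn16 in cisplatin against control (horizontal axes), with all 20 libraries and with each left out in turn (vertical axis). Filled points passed an adjusted p of 0.05. Trpm6 moves from 2.07 to 0.83 without cisplatin replicate 10, Cldn14 stays filled throughout, and the open points of Cldn16 spread over many left-out libraries.

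With 7-HCG, Trpm6 gave 4.98, 13.7, 16.2, 4.23 and 8.38 CPM at 15 mg/kg and 6.04, 7.01, 4.36, 10.2 and 14.3 CPM at 30 mg/kg. Both groups overlapped control. Against cisplatin the log2 fold change was -1.89 ± 0.60 and -2.06 ± 0.60 (edgeR adjusted p = 0.0187 and 0.0163). Without cisplatin replicate 10 these were -0.64 and -0.82 (edgeR adjusted p = 0.217 and 0.133), so both values also rest on that kidney. Without replicates 9 and 10 they were -0.36 and -0.58 (edgeR adjusted p = 0.564 and 0.363). The 15 mg/kg call ended too without replicate 5 of that dose, at -1.70 (edgeR adjusted p = 0.0504). Against control they were 0.18 ± 0.58 and 0.00 ± 0.58 (edgeR adjusted p = 0.819 and 0.998).

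Trpm7, a channel found in nearly all cells that pairs with TRPM6 (chromosome 2, 126791565 to 126876230, minus strand), showed no detectable change with cisplatin alone and was low with 7-HCG. Control kidneys gave 103, 66.4, 62.4, 89.4 and 87.9 CPM and cisplatin kidneys 103, 56.3, 104, 77.4 and 75.4 CPM, overlapping ranges with a log2 fold change of 0.03 ± 0.28 (edgeR adjusted p = 0.966). Kidneys given 15 mg/kg gave 55.0, 19.8, 41.4, 17.5 and 36.8 CPM, below every kidney of both other groups. At 30 mg/kg they were 30.4, 36.1, 38.3, 62.6 and 55.0 CPM, where only replicate 7 reached the lower end of the other groups. Against cisplatin the level fell by 1.29 ± 0.28 and by 0.90 ± 0.28 on the log2 scale (edgeR adjusted p = 0.00189 and 0.0217), and against control by 1.26 ± 0.28 and 0.88 ± 0.28 (edgeR adjusted p = 0.00161 and 0.0207). Without cisplatin replicates 9 and 10 the first pair was -1.34 and -0.998 (edgeR adjusted p = 0.00639 and 0.0422). The 30 mg/kg calls were near the threshold. That against cisplatin ended without cisplatin replicate 2 or 30 mg/kg replicate 1 or 5, at -0.81, -0.79 and -0.83 (edgeR adjusted p = 0.0568, 0.0597 and 0.0551), and that against control without control replicate 1 or 30 mg/kg replicate 1 or 5, at -0.79, -0.76 and -0.81 (edgeR adjusted p = 0.0575, 0.0544 and 0.0564). With library totals alone as the scaling the calls against cisplatin ended, at -0.98 and -0.54 (edgeR adjusted p = 0.0913 and 0.361), as did that at 30 mg/kg against control, at -0.81 (edgeR adjusted p = 0.168).

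Egf, which encodes the hormone that raises TRPM6 activity (chromosome 3, 129677565 to 129755316, minus strand), split the cisplatin group. Control kidneys gave 406, 224, 150.0, 302 and 385 CPM. Cisplatin replicates 2, 3 and 6 gave 231, 314 and 299.6 CPM, within the control range, while replicates 9 and 10 gave 59.5 and 52.4 CPM. The log2 fold change of -0.62 ± 0.47 was not called (edgeR adjusted p = 0.412). The 15 mg/kg kidneys gave 376, 372, 747, 353 and 546 CPM, above all cisplatin kidneys. The 30 mg/kg kidneys gave 588, 275, 125, 504 and 549 CPM, overlapping all groups.

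The difference in Egf from cisplatin was 1.32 ± 0.48 at 15 mg/kg (edgeR adjusted p = 0.0344) and 1.09 ± 0.47 at 30 mg/kg (edgeR adjusted p = 0.0879). The first was 1.11 without replicate 9, 1.10 without replicate 10 and 0.80 without both (edgeR adjusted p = 0.0758, 0.0696 and 0.173). It was 1.11 and 1.27 without 15 mg/kg replicates 3 and 7 (edgeR adjusted p = 0.0893 and 0.0601). Against control neither dose was called, at 0.71 ± 0.47 and 0.48 ± 0.47 (edgeR adjusted p = 0.226 and 0.443). Genes 6330410L21Rik and Gm42697 on the opposite strand overlap Egf exons, so their reads cannot be told apart from its own.

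Cnnm2 encodes a basolateral membrane protein of the distal tubule needed for magnesium balance (chromosome 19, 46761596 to 46878795, plus strand). Its values were 14.8, 20.3, 16.6, 25.6 and 25.0 CPM in control and 17.0, 22.0, 21.9, 24.6 and 28.8 CPM in cisplatin, a difference of 0.16 ± 0.19 that was not called (edgeR adjusted p = 0.640). The lower dose gave 30.3, 30.2, 46.7, 33.2 and 39.2 CPM, above all kidneys of both groups. The higher dose gave 39.2, 29.6, 22.8, 32.1 and 31.4 CPM, of which replicate 6 lay within both. The log2 fold change against control was 0.81 ± 0.19 and 0.60 ± 0.19 (edgeR adjusted p = 0.00257 and 0.0218), and against cisplatin 0.66 ± 0.20 and 0.44 ± 0.19 (edgeR adjusted p = 0.0127 and 0.0897). Without cisplatin replicates 9 and 10 the difference between the lower dose and cisplatin was 0.85 (edgeR adjusted p = 0.00969). The call at 30 mg/kg against control ended without control replicate 1 or 5 or 30 mg/kg replicate 1, at 0.50, 0.54 and 0.51 (edgeR adjusted p = 0.0714, 0.0586 and 0.0582).

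Slc41a3 encodes a carrier of the SLC41 magnesium transporter family (chromosome 6, 90604725 to 90646412, plus strand) and was called in no comparison. Control kidneys gave 1.72 to 2.79 CPM, cisplatin kidneys 0.750 to 3.98 CPM. Kidneys with the lower dose gave 1.65 to 3.63 CPM, and those with the higher 1.27 to 3.61 CPM. All 4 ranges overlapped. In cisplatin, 4 of 5 kidneys lay at or under 1.76 CPM and replicate 9 stood at 3.98 CPM, with 6 to 94 counts a library behind these values.

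Fxyd2 encodes the gamma subunit of the sodium pump (chromosome 9, 45399709 to 45410278, plus strand). It gave 1863, 1734, 1381, 2509 and 2148 CPM in control and 1812, 2751, 1769, 1792 and 1973 CPM in cisplatin. The groups overlapped and differed by 0.07 ± 0.26 on the log2 scale (edgeR adjusted p = 0.897). The 15 mg/kg kidneys gave 2554, 7351, 4585, 4635 and 3469 CPM, above every control kidney and, but for replicate 1, above every cisplatin kidney. The rise there was 1.16 ± 0.27 against cisplatin and 1.23 ± 0.27 against control (edgeR adjusted p = 0.00254 and 0.00133), and 1.14 against cisplatin without replicates 9 and 10 (edgeR adjusted p = 0.0159). The 30 mg/kg kidneys gave 3647, 2831, 2213, 2118 and 2615 CPM, and differences of 0.41 ± 0.26 and 0.48 ± 0.26 were not called (edgeR adjusted p = 0.250 and 0.163).

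Proximal tubule markers were also higher with 7-HCG than with cisplatin alone. The sum of 8 markers ranged from 1533 to 3527 CPM in cisplatin and from 1967 to 5553 CPM in control. With 15 mg/kg 7-HCG it ranged from 4123 to 7911 CPM, with 30 mg/kg from 3727 to 11997 CPM, and no marker was at 0. At each dose 6 of 8 were called higher than in cisplatin (18.9% and 14.7% of all genes). Against control 3 of 8 were higher at 15 mg/kg and 2 of 8 at 30 mg/kg (23% and 18.6% of all genes). FXYD2 is also present in that segment, and the part of these markers in the Fxyd2 result was not tested.

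Ratios of counts within a library do not depend on how libraries are scaled, and 5 pairs are given that relate a member to a partner of the same cell or pathway. Each of 6 comparisons was tested by a 2-sided exact permutation test over all splits of 5 against 5, where the smallest p is 0.00794, with adjustment over the 36 tests of 6 pairs. Of the 30 tests given here 10 passed, and none did without cisplatin replicates 9 and 10. With that pair left out fewer splits remain, so the smallest possible p of tests with cisplatin is larger. The joint adjustment then also raises the adjusted p of tests that hold no cisplatin kidney. A call lost there thus does not show that a ratio rests on the pair. The values below are differences in mean log2 ratio, not corrected for gene length.

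Relative to Slc12a1, Cldn16 was higher than in control by 1.86 at 15 mg/kg and by 2.04 at 30 mg/kg, with no overlap (exact permutation test, adjusted p = 0.0317 for both). Both genes enter that ratio. In control, 15 and 30 mg/kg, mean Cldn16 was 7.58, 21.4 and 19.0 CPM and mean Slc12a1 was 569.5, 383 and 330.4 CPM. The summed thick limb markers, in contrast to Slc12a1 alone, had medians of 1844, 4077 and 2865 CPM in the same order. The part of each gene in the ratio was not tested. Relative to Cldn16, Cldn14 was higher in cisplatin than in control by 3.06 and at 30 mg/kg by 2.41 (exact permutation test, adjusted p = 0.0476 for both). These calls held in 10 and 11 of 24 alternative settings. Control replicate 7 had no Cldn14 count, so its ratio is set by the 0.5 added to each count, and without it the differences were 2.17 and 1.52 (exact permutation test, adjusted p = 0.0612 for both). The first was 3.31 without cisplatin replicates 9 and 10 (exact permutation test, adjusted p = 0.107). At 15 mg/kg this ratio differed from control by 2.09 and did not pass (exact permutation test, adjusted p = 0.163).

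The ratio of Egf to Slc12a1 separated cisplatin from both doses, and both genes enter it. Mean Egf was 293, 191, 479 and 408 CPM in control, cisplatin, 15 and 30 mg/kg. Mean Slc12a1 was 569.5, 574, 383 and 330.4 CPM in the same order. The part of each gene in the ratio was not tested. The log2 ratio was -1.68 ± 0.39 in cisplatin, -0.93 ± 0.25 in control, 0.27 ± 0.35 with the lower dose and 0.15 ± 0.79 with the higher (SD, n = 5). Cisplatin minus control was -0.75 (exact permutation test, adjusted p = 0.0476), a call that held in 11 of 24 alternative settings, and -0.61 without cisplatin replicates 9 and 10 (exact permutation test, adjusted p = 0.107). It was higher by 1.95 and 1.84 at the doses than in cisplatin, where no values overlapped (exact permutation test, adjusted p = 0.0317 for both). Without the same pair these differences were 1.81 and 1.69 (exact permutation test, adjusted p = 0.0714 and 0.0918). At 15 mg/kg it also exceeded control, by 1.20 (exact permutation test, adjusted p = 0.0317), while the 1.08 at 30 mg/kg did not pass (exact permutation test, adjusted p = 0.0672).

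Relative to Trpm7, Trpm6 was higher in cisplatin than in control by 1.41 with no overlap (exact permutation test, adjusted p = 0.0317), and by 0.78 without replicate 10. It was 0.52 without replicates 9 and 10 (exact permutation test, adjusted p = 0.0918), and the call held in 17 of 24 alternative settings. The same ratio differed from control by 1.41 at 15 mg/kg and by 0.84 at 30 mg/kg. Neither passed (exact permutation test, adjusted p = 0.0672 and 0.0571), and its mean was -1.90 both in cisplatin and at 15 mg/kg. Relative to Slc12a3, the thiazide-sensitive carrier that marks the distal convoluted tubule, Trpm6 was lower at 15 mg/kg than in cisplatin, a difference of -1.34 (exact permutation test, adjusted p = 0.0317), and -1.04 without replicates 9 and 10 (exact permutation test, adjusted p = 0.0714). Cisplatin minus control was 0.91 for the ratio to Slc12a3 and did not pass (exact permutation test, adjusted p = 0.0857).

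**Figure D4:**
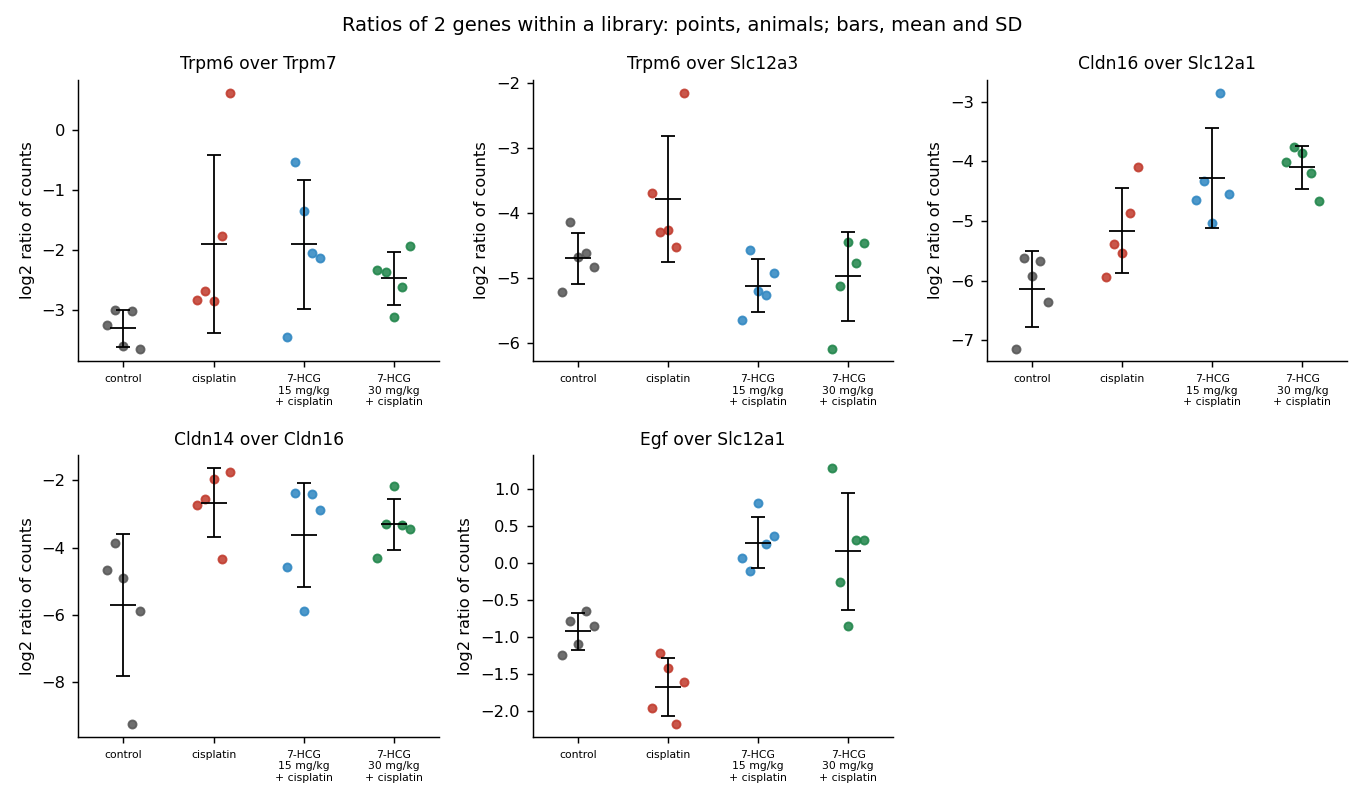
Log2 ratio of the counts of 2 genes within each library (vertical axes), by group. Points are animals and bars the mean and SD. Egf over Slc12a1 lies lowest in cisplatin, and all 5 kidneys at each dose lie above it.

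Cldn14 was set beside the summed level of 8 tubular injury markers (Havcr1, Lcn2, Krt20, Sox9, Vcam1, Cdkn1a, Spp1 and Clu). The sum ranged from 552 to 1540.4 CPM in control and from 2888 to 8619 CPM in cisplatin. With 15 mg/kg 7-HCG it ranged from 1554 to 10151 CPM, and with 30 mg/kg from 1441 to 17048 CPM. Of these markers 6 of 8 were called higher in cisplatin than in control (8.41% of all genes) and 7 of 8 at each dose (23% and 18.6%), none at 0. Within cisplatin the lowest Cldn14, 0.408 CPM in replicate 9, came with the lowest sum, 2888. Replicate 10 had nearly the same sum, 2922, with 2.75 CPM. Among the 10 kidneys given 7-HCG, the 3 with the lowest Cldn14 (15 mg/kg replicates 1 and 3 and 30 mg/kg replicate 1) were the 3 with the lowest sums, 2711, 1554 and 1441. The part of injury in the Cldn14 values was not tested.

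**Figure D5:**
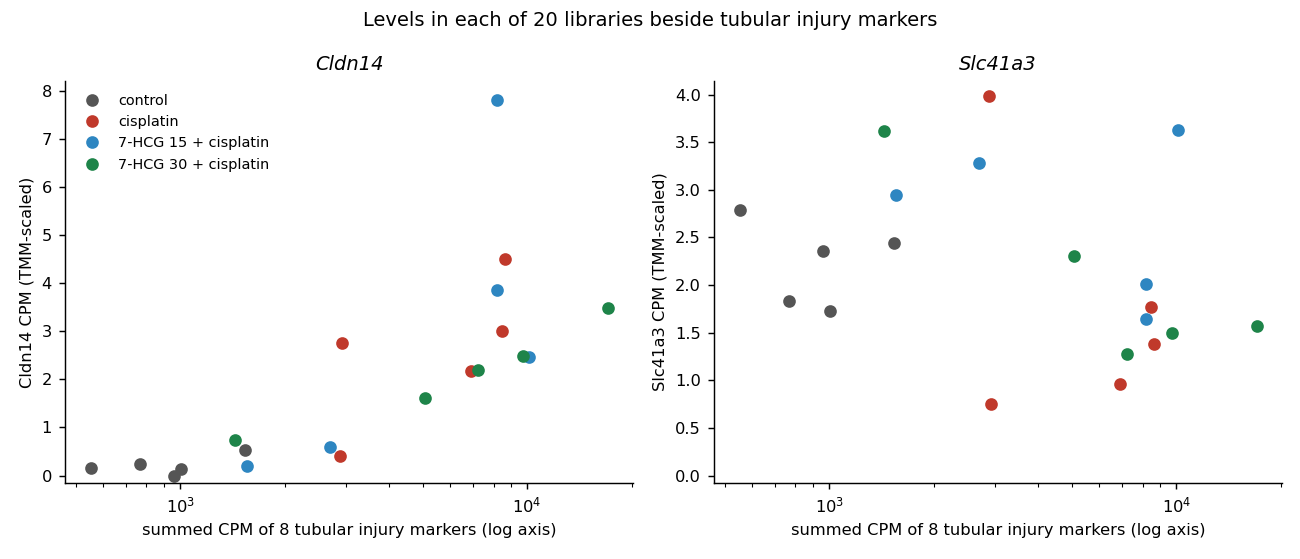
CPM of Cldn14 and of Slc41a3 (vertical axes) against the summed CPM of 8 tubular injury markers on a log axis, one point for each of 20 libraries. Control libraries, with sums up to 1540.4 CPM, hold at most 0.532 CPM of Cldn14. Slc41a3 shows no like order, with 3.98 CPM in a cisplatin kidney of low sum. With 7-HCG it was 3.28, 2.94 and 3.61 CPM in the kidneys of lowest sum (15 mg/kg replicates 1 and 3 and 30 mg/kg replicate 1). It was 3.63 CPM in 15 mg/kg replicate 7, with a sum of 10151, and 1.27 to 2.31 CPM in the remaining kidneys given 7-HCG.

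A list of 30 further magnesium genes, of which 29 were tested, was set beside the members. In cisplatin against control 3 were higher and 1 lower, beside 8.41% and 5.01% of all genes, a share near the background. The magnesium carrier Slc41a1 rose by 0.86 ± 0.17 and the mitochondrial magnesium channel Mrs2 by 0.57 ± 0.19 (edgeR adjusted p = 0.00412 and 0.0459). Bsnd, which encodes barttin, fell by 1.22 ± 0.35 (edgeR adjusted p = 0.0264).

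At 15 mg/kg against cisplatin 8 of 29 were higher and 2 lower (18.9% and 18.6% of all genes), and at 30 mg/kg 6 and 1 (14.7% and 13.2%). Nipal1, of the NIPA family of magnesium transporters, fell by 2.43 ± 0.62 and 1.64 ± 0.59 (edgeR adjusted p = 0.00470 and 0.0434). Tusc3, which is linked to magnesium uptake, rose by 1.12 ± 0.27 and 1.34 ± 0.28 (edgeR adjusted p = 0.00369 and 0.00209). Kcnj16, a potassium channel subunit on the blood side of the distal tubule, rose by 0.99 ± 0.32 and 1.10 ± 0.32 (edgeR adjusted p = 0.0180 and 0.0141). Against control 6 were higher and 2 lower at 15 mg/kg (23% and 22.2% of all genes), and 8 and 1 at 30 mg/kg (18.6% and 15.6%). Slc12a3, Casr and Egfr were called in no comparison.

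Among all pairs of members, Egf and Cldn10 varied most alike over the 20 libraries, with r = 0.81 and 0.72 around the group means. Egf and Cldn19 stood at 0.74 and 0.80, and Trpm7 and Fxyd2 ran opposite at -0.83 and -0.57. Among 12503 other genes, the one most like Trpm7 was Fancm (r = 0.97), a DNA repair helicase gene. The nearest to Cldn14 were Dscaml1 (r = 0.94) and Lif (r = 0.91), a cytokine gene of the interleukin-6 family, and the nearest to Cldn10 was Cdh16 (r = 0.92), the kidney cadherin gene. Cldn16 was nearest to Cdhr2 and Mgmt (r = 0.93 for both), Cnnm2 to Slc7a7 (r = 0.93), Egf to Flrt1 and Acss2 (r = 0.92 for both), and Trpm6 to Usp3 (r = 0.93). Fxyd2 was nearest to Tpgs1 and Aes (r = 0.97 for both), Cldn19 to Pcsk6 (r = 0.89) and Slc41a3 to Fkbp9 (r = 0.83). All these points share library scaling and groups, so the correlations are descriptions with no test.

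The authors' deposited table holds their own comparisons, with a q-value for each gene. At q below 0.05 the authors' deposited table called the same members in the same direction or left them uncalled in 48 of 50 entries. The exceptions were Cldn16 in cisplatin against control (q = 0.0670 in the authors' deposited table) and Cldn10 at 30 mg/kg against cisplatin (q = 0.0909 in the authors' deposited table), the same pair that was called in few alternative settings.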

How the data were processed

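Whole kidneys of 20 mice were measured by RNA sequencing of polyadenylated RNA, 1 library an animal. Tools listed in the submitters' processing notes are DESeq2, FastQC, HISAT2, StringTie and Trimmomatic, with the build mm10 (GRCm38). For the counting program, its strand setting and the annotation, nothing is given in the sources used here. Per the file headers, the authors deposited a raw count per gene and library, used as deposited, and for each comparison a log2 fold change, a p-value and a q-value. Nothing was rescaled before deposit as far as the values show, since they are whole numbers with differing totals.

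Groups and replicate numbers come from the labels. Whether same-numbered animals share a litter, cage or day is not stated. Their deviations from the group means correlated at 0.00 on average over 15 pairs (-0.31 to 0.23), so the numbers were not used as a block. Replicate pairs differed beyond sampling noise (chi-square per degree of freedom 23.8 to 1584 over 40 pairs).

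The main test used edgeR 4.0.16 (R 4.3.3) on the counts (robust quasi-likelihood F-test, TMM scaling, filterByExpr by group, all 20 libraries in 1 fit with 16 residual degrees of freedom, 2-sided, Benjamini-Hochberg over 14858 genes, called at 0.05). The script was tested on simulated data. CPM use TMM-scaled library sizes, RPKM divide them by the joined exon length in GENCODE vM21, ± after CPM or RPKM is an SD and after a log2 fold change a standard error. Ratios are log2 of counts plus 0.5, compared by exact permutation. A floor of 3 counts covers only counting error, because reads lack molecular identifiers and may be copies of a molecule.

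Alternatives were RLE size factors, library totals, DESeq2 1.42.0, limma voom (limma 3.58.1), no low-count filter, mitochondrial genes left out, the replicate block, only the groups compared, each library left out, and 2 pairs of libraries left out. Named are all 10 members, called genes of the list of 30, the ratio partners, and for each member the genes most correlated with it on log2 CPM (prior count 2, mean from 1 CPM up), leaving out model names. Some genes of these lists and 1 ratio pair are not reported here. The members and lists were chosen with earlier results of these data known. Promoter and microRNA sequences are RefSeq's (GRCm38.p6), and 9 of 10 members had a promoter entry. Gene coordinates are those of the deposited table.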

Additional observations from a re-analysis of the deposited data

Results flagged for a closer look

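In each of 40 groups of 5 values (10 genes by 4 groups) the most distant kidney was checked against the spread of the others. Chance alone flags about 1 in 20 such groups, and 3 of 40 exceeded the critical ratio of 0.71 for the gap over the range. Trpm6 stood at 117 CPM in cisplatin replicate 10, a gap of 0.870 of the group's range. Cldn16, the pore-forming claudin, stood at 41.3 CPM in 15 mg/kg replicate 5, a gap of 0.756. Fxyd2, the pump subunit, stood at 2751 CPM in cisplatin replicate 3, a gap of 0.792. Without replicate 10 Trpm6 was no longer called in cisplatin against control, and without replicate 5 Cldn16 stayed called at 15 mg/kg against control.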

How the results depend on the processing

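Of 22 member calls, all kept their direction under every alternative, and Cldn14 and Cldn16 against control at both doses, with Trpm7 and Fxyd2 at 15 mg/kg against control, also stayed called in 30 of 30. Depth limits Cldn14, whose control libraries held 0 to 20 counts. Causes of the changes were not tested, and fewer samples narrow what the left-out fits can call. Library totals alone moved the all-gene median log2 fold change to -0.35, 0.23, 0.39, -0.14, 0.03 and 0.13 in cisplatin against control, 15 and 30 mg/kg against cisplatin, 15 and 30 mg/kg against control and 30 against 15 mg/kg. The genes called higher and lower went from 1250 and 744 to 207 and 676 in the first comparison, from 2811 and 2767 to 1537 and 509 in the second, from 2180 and 1968 to 1220 and 193 in the third and from 3411 and 3298 to 1216 and 1886 in the fourth. With RLE size factors the fifth went from 2771 and 2317 to 2194 and 2783, and with DESeq2 the third went to 2030 and 2849. With library totals alone members called fell to 1 in cisplatin against control, 3 and 0 at 15 and 30 mg/kg against cisplatin and 2 at 30 mg/kg against control. Uncalled members that changed sign there were Trpm7 (-0.26), Cnnm2 (-0.28) and Fxyd2 (-0.23) in cisplatin against control and Cldn19 (0.041) at 30 mg/kg against cisplatin.

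For the same groups, limma voom called 1 member in cisplatin against control and 1 at 30 mg/kg against cisplatin, no low-count filter left 1 in the former, and fitting only the groups compared left 1 in the latter. Trpm6 at 30 mg/kg against control, 0.00 in the report, was -0.088 with DESeq2, -0.085 with RLE, -0.0032 with limma voom, -0.063 without mitochondrial genes and -0.061 with only the groups compared. Under limma voom Cldn14 was -0.83 at 15 mg/kg against cisplatin and 0.38 at 30 against 15 mg/kg. Without mitochondrial genes Trpm7 in cisplatin against control was -0.00041.

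With the replicate block, members called were 0 in cisplatin against control, 1 at 15 mg/kg and 0 at 30 mg/kg against cisplatin, and all genes called went from 1994 to 17, from 5578 to 1329 and from 4148 to 310. Numbers 9 and 10 occur only in cisplatin, so the block fits each of those libraries exactly. Comparisons with cisplatin then rest on its replicates 2, 3 and 6. The block also leaves fewer degrees of freedom than the 16 of the main fit. The part of each in the lost calls was not tested. Same-numbered libraries are different animals whose deviations correlated at 0.00 on average (3 of 15 pairs above 0.1, beside 39 of 135 pairs of different number). That average cannot show whether they share a litter, cage or day. With the block, signs changed for Egf (0.41), Cldn10 (0.30) and Cldn19 (0.14) in cisplatin against control, Cldn14 (-0.66) at 15 mg/kg and Cldn16 (-0.11) at 30 mg/kg against cisplatin, and Trpm6 (0.031) between doses.

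Without cisplatin replicates 9 and 10, genes called in cisplatin against control went from 1994 to 691, members called at 30 mg/kg against cisplatin were 1, and ratios called were 0. The ratios called against control at either dose kept their values and p there, but the adjusted p became 0.0714. Signs changed for Cldn10 (0.059) and Cnnm2 (-0.040) in cisplatin against control, Cldn14 (-0.080) at 15 mg/kg against cisplatin and Trpm6 (-0.043) at 30 mg/kg against control. The ratio of Trpm6 to Trpm7 became 0.89 and 0.32 at 15 and 30 mg/kg against cisplatin. Without control replicates 2 and 5, genes called in cisplatin against control were 292, members called there 0 and ratios called 0. Signs changed for Trpm7 (-0.17) and Fxyd2 (-0.11) in cisplatin against control, Trpm6 at 15 and 30 mg/kg (-0.0044 and -0.18) and Slc41a3 at 30 mg/kg (0.065) against control.

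With each library left out in turn, members called were 1 to 3 in cisplatin against control, 1 to 4 at 30 mg/kg against cisplatin and 2 to 4 at 30 mg/kg against control, and ratios called went from 10 to between 5 and 11. In cisplatin against control Trpm7 ranged from -0.066 to 0.14 and Fxyd2 from -0.069 to 0.17. Against cisplatin, Cldn14 at 15 mg/kg ranged from -0.57 to 0.49, and at 30 mg/kg Cldn19 from -0.28 to 0.20 and Slc41a3 from -0.078 to 0.71. The ratio of Trpm6 to Trpm7 ranged from -0.35 to 0.63 at 15 mg/kg and from -0.81 to 0.058 at 30 mg/kg. Against control Trpm6 ranged from -0.10 to 0.37 at 15 mg/kg and from -0.27 to 0.17 at 30 mg/kg, and Slc41a3 at 30 mg/kg from -0.42 to 0.018. Between doses the ranges were -0.45 to 0.11 for Trpm6, -0.40 to 0.0020 for Egf, -0.80 to 0.25 for Cldn14 and -0.30 to 0.20 for Cldn16. The ratio of Egf to Slc12a1 ranged from -0.40 to 0.13, that of Cldn14 to Cldn16 from -0.25 to 0.64 and that of Cldn16 to Slc12a1 from -0.0040 to 0.54.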
